A study of Mus musculus with 12 samples.

Results

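The apolipoprotein genes described here are Apoa1, Apoa2, Apoa4, Apoa5, Apob, Apoc1, Apoc2, Apoc3, Apoe and Apom. They were chosen by name, and every RefSeq transcript of these genes in the table of RNA levels was summed per gene, which gave 10 of 24910 genes or unmatched transcripts. Livers of C57BL/6J wild-type male mice had been profiled by RNA-seq and by FAIRE-seq, an assay that enriches formaldehyde-treated DNA not bound up in nucleosomes and so marks accessible chromatin. The Control group received standard chow for 28 weeks and had no surgery. The Sham and VSG groups received a diet with 60 kcal% of fat from 8 weeks of age, for 14 weeks before and 14 weeks after surgery, with a liquid diet for the first 4 days after it. In the VSG group (vertical sleeve gastrectomy) about 80% of the stomach was removed, and in the Sham group the stomach was isolated and only pressed with forceps. Each group holds 2 mice, so the study has 6 RNA-seq and 6 FAIRE-seq samples. Sham against Control joins the diet with the sham operation, and these cannot be told apart, while VSG against Sham compares the surgery on one diet.

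Apolipoproteins are the protein part of lipoprotein particles, which carry triglyceride and cholesterol in blood, and the liver is a main source of most of them. ApoB forms the backbone of very low-density and low-density particles, ApoA-I and ApoA-II are the main proteins of high-density particles, and ApoE is a ligand for the receptors that clear remnants. The remaining members tune lipolysis or ride on particles: ApoC-II activates lipoprotein lipase, ApoC-III and ApoC-I hold lipolysis or clearance back, ApoA-V promotes lipolysis, ApoA-IV is made mainly in the intestine and in fat-laden mouse liver, and ApoM carries sphingosine-1-phosphate in high-density particles.

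Coordinates are on mouse build mm9 (NCBIM37). Apoa1, Apoc3, Apoa4 and Apoa5 lie in one cluster, chr9:46036663-46080002, and Apoe, Apoc1 and Apoc2 in another, chr7:20256928-20284515. Apoa2 is at chr1:173155185-173156510, Apob at chr12:7984454-8023641 and Apom at chr17:35265942-35268995. The RefSeq table of promoters, made on GRCm38.p6, held 8 of the 10 genes, all but Apoc1 and Apoc3, and its sequences were placed in mm9 by exact match. The 5 stretches below are shown because FAIRE peaks lay over the starts of these genes. Each stretch ends just before the RefSeq start or the annotated gene start, whichever lies further upstream. The RefSeq start, from which motif positions are counted, lies 30 bases past the last printed base at Apob and 149 at Apoa4. They run 5′ to 3′ on the strand of the gene, which is the plus strand except at Apoe, and capitals mark the motif matches.
Apoa2, chr1:173154935-173155184: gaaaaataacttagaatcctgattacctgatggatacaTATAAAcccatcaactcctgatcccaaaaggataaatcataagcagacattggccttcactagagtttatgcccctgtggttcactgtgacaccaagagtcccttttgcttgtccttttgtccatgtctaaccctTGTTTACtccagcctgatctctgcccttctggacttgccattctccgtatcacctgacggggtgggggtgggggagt
Apoe, chr7:20284538-20284787: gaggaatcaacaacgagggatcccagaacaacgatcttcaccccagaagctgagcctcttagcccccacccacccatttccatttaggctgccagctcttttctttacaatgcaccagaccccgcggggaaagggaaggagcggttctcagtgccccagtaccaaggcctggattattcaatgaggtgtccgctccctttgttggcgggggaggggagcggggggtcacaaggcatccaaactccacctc
Apoa4, chr9:46048677-46048778: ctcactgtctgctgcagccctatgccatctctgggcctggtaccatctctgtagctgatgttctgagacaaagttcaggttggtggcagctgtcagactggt
Apoa5, chr9:46076466-46076715: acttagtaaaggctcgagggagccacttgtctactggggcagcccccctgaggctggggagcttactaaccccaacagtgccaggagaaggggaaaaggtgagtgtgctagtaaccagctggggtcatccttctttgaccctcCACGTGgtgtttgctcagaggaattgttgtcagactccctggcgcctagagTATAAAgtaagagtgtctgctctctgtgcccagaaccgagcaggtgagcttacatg
Apob, chr12:7984233-7984453: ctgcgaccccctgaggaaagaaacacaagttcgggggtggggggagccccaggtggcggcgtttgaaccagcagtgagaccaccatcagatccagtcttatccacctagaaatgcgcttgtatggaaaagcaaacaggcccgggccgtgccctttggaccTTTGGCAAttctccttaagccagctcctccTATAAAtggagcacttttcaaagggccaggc

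The motifs searched on both strands in the 250 bases upstream of 1 RefSeq start per gene, the one nearest the annotated gene start, were the TATA box (TATAAA), a nuclear receptor half-site (AGGTCA), an HNF4 site (CAAAGTCCA), the core of a direct repeat (CAAAGGTCA, which contains the half-site), an HNF1 half-site (GTTAAT), a C/EBP site (TTGCNNAA), an E-box (CACGTG), a FOX site (TGTTTAC) and a GC box (GGGCGG, not put in capitals). The TATA box stood in the promoters of Apoa2, Apoa5 and Apob, 3 of 8, against 12.4% of 32851 promoters, a count over all starts at any position. It began 212 bases before the RefSeq start in Apoa2 and 60 bases before it in Apob. Over all 12 RefSeq starts of the 8 genes the TATA box stood at 5. This adds a start of Apoe, with matches 100 and 96 bases before it, and the other start of Apoa5. The latter shares the same letters, which begin 31 bases before that start. Another Apoe start held an HNF1 half-site, and another Apoa2 start a nuclear receptor half-site and a pair of C/EBP matches. In Apoa5 the TATA box began 56 bases before the start, with an E-box beginning 107 bases before it, a motif that 6.02% of all promoters held. In Apob a C/EBP match, held by 9.56% of promoters, began 90 bases before the RefSeq start. Apoa2 held a FOX match 77 bases before its start, against 3.17% of promoters. Apoc2 held a half-site (14.0% of promoters) and an HNF1 half-site (6.43%). The HNF4 letters, in 0.384% of promoters, the direct repeat, in 0.426%, and the GC box, in 32.7%, were at none of the 12 starts. These matches describe letters in the sequence, not binding.

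RNA levels are given in FPKM, fragments per kilobase of transcript relative to all mapped fragments, a scale on which genes can be compared per length. The 10 genes fell into an abundant and a lower tier. Apoa2, Apoe, Apoa1, Apoc1 and Apoc3 lay between 1642 and 18471 FPKM in every mouse. Among the genes with a value, Apoa2 ranked first in 5 of the 6 mice. Apoa4, Apoa5, Apoc2, Apob and Apom reached at most 932 FPKM. Together the 10 genes made up 12.8% and 11.3% of the summed FPKM in the 2 Control mice. The share was 10.9% and 6.95% for Sham, and for VSG 10.9% and 11.002%. Sham mouse 2 had the lowest share. The hepatocyte markers Alb, Serpina1a, Serpina1b and Tf had no value under these names. The same held for the acute phase genes Fga, Fgb, Hpx, Saa1, Saa2, Saa3 and Saa4. Ranks and shares are therefore over the genes that had a value, not over all liver mRNA. With 2 mice against 2, an exact permutation test of this share cannot give a p below 0.3333, and none was run. In bulk liver, fewer cells of a type and less RNA per cell cannot be told apart.

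**Figure D1:**
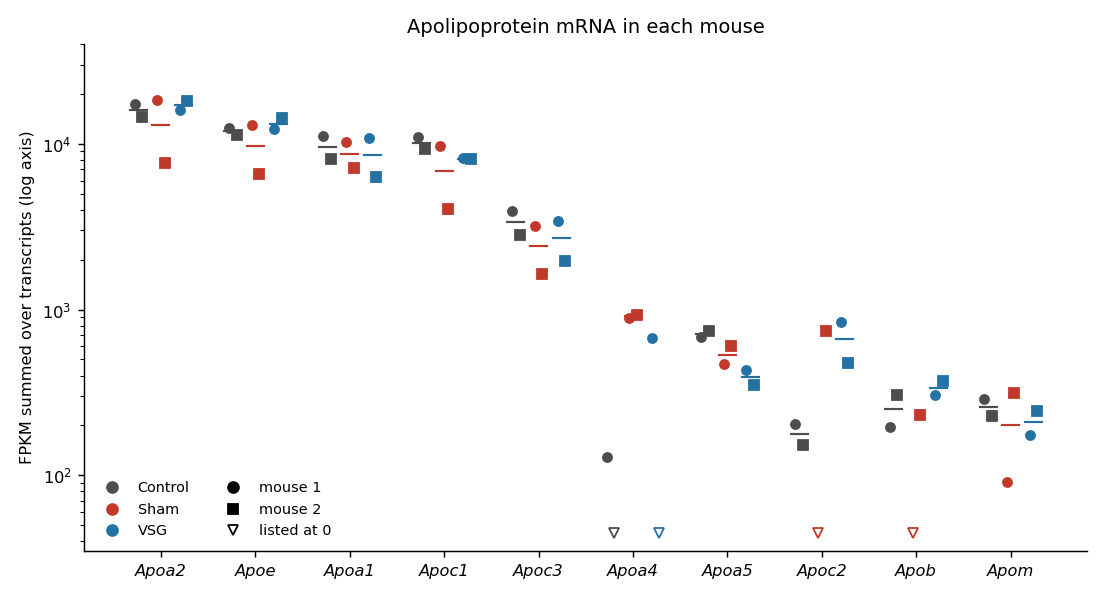
FPKM (log axis) of each apolipoprotein gene in the 6 mice, ordered by mean level; circles are mouse 1 and squares mouse 2 of a group, short lines the mean of a group without a 0, and open triangles values listed at 0. Sham mouse 2 is the lowest square among the abundant genes Apoa2, Apoe, Apoc1 and Apoc3, and 4 values of Apoa4, Apoc2 and Apob are listed at 0.

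Of the 10 genes, 7 had a value above 0 in all mice, and Apoa4, Apob and Apoc2 were each listed at 0 in 1 or 2 mice. An exact 0 can be a failed estimate: 98 of the 937 genes that reached 100 FPKM in a mouse, 10.5%, were listed at 0 in another. Values of these 3 genes are therefore given mouse by mouse.

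Among the proteins of high-density particles, Apoa1 was at 11117 and 8077 FPKM in Control, 10246 and 7161 in Sham, and 10781 and 6334 in VSG. The groups overlapped fully, and mouse 1 was above mouse 2 in each. Means ± SD (n = 2) were 9597 ± 2150, 8703 ± 2181 and 8558 ± 3145. Apoa2 was at 17303 and 14543 FPKM in Control, 18471 and 7635 in Sham, and 15926 and 18142 in VSG. One Sham mouse had the highest value of the 6 and the other the lowest, so its Sham mean of 13053 ± 7662 (SD, n = 2) describes neither. Apom was at 287 and 228 in Control, 90.8 and 312 in Sham, and 176 and 244 in VSG, again with both extremes in Sham.

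Apoe was at 12481 and 11342 FPKM in Control, 12913 and 6550 in Sham, and 12202 and 14282 in VSG. Sham mouse 2 was the single low value, and the groups otherwise overlapped. The sum came from 2 transcripts that the estimate has to split: the share of the second, NM_001305844, reached 39.2% of the gene, in Sham mouse 1. Its neighbour Apoc1, which hinders the uptake of remnants, was at 10943 and 9341 FPKM in Control, 9701 and 4043 in Sham, and 8180 and 8045 in VSG. Both VSG mice lay below both Control mice, and the Sham mice lay on either side of the VSG mice. Apoc2, the cofactor of lipoprotein lipase, was at 204 and 153 FPKM in Control, listed at 0 and at 747 in Sham, and at 847 and 476 in VSG. Both VSG mice lay above both Control mice, but the transcript NM_001309795, at 487, 565 and 253 FPKM in Sham mouse 2 and the VSG mice, was listed at 0 in the other 3. Transcripts of Apoc4, which overlaps the Apoc2 gene model on the same strand, were at 1496 and 1207 FPKM in Control, 2452 and 985 in Sham, and 1906 and 1406 in VSG, and how reads were divided between these genes was not measured, so the values of Apoc2 are uncertain.

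Apoc3, the inhibitor of lipolysis, was at 3955 and 2823 FPKM in Control, 3210 and 1642 in Sham, and 3431 and 1965 in VSG. All 3 groups overlapped, and mouse 2 was below mouse 1 in each. Apoa5, which promotes lipolysis, was at 683 and 743 FPKM in Control, 468 and 603 in Sham, and 434 and 352 in VSG. It was the one gene of the 10 whose groups did not overlap at all, with means ± SD (n = 2) of 713 ± 42.4, 536 ± 95.1 and 393 ± 58.1. Of all genes, 20.4% fell without overlap in Sham against Control, 9.78% in VSG against Sham and 14.8% in VSG against Control. The share over all 3 groups at once was not computed. Apoa4 was at 130 FPKM and listed at 0 in Control, at 888 and 932 in Sham, and at 675 and listed at 0 in VSG. Both Sham mice lay above all other mice, and the VSG mice stood apart from each other. Apob was at 196 and 304 FPKM in Control, listed at 0 and at 231 in Sham, and at 304 and 371 in VSG.

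Tests were made with limma on log2(FPKM + 1) over 9869 genes, with Benjamini-Hochberg adjustment at a false discovery rate of 10%. None of the 10 genes passed in any of the 3 comparisons. Among all genes, 0.284% passed in Sham against Control, 0.0507% in VSG against Sham and 0.284% in VSG against Control. At an unadjusted p under 0.05 the 10 genes gave 0, 0 and 1, against 10.9%, 4.85% and 9.56% of all genes. The p-values set a group difference against the spread between mice of a group. That spread was pooled over the 3 groups and drawn toward that of genes at a similar level. The replicate number of a mouse is only a name.

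The 1 gene at an unadjusted p under 0.05 was Apoa5 in VSG against Control, with a log2 fold change of -0.87 (SE 0.27), a limma p of 0.0237 and an adjusted p of 0.459. Both VSG mice were below both Control mice, as 14.8% of all genes were. Its log2 change was -0.42 (SE 0.27, adjusted p = 0.607 by limma) in Sham against Control and -0.44 (SE 0.27, adjusted p = 0.944 by limma) in VSG against Sham. These comparisons share mice, so the 3 values are not independent.

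Non-overlapping groups are given with the share of all genes that separated the same way. In Sham against Control, both Sham mice were above both Control mice for Apoa4, where 25.4% of all genes were, and below them for Apoa5, where 20.4% were. In VSG against Sham, both VSG mice were above for Apob (18.5% of all genes) and below for Apoa4 and Apoa5 (9.78%). In VSG against Control, both VSG mice were above for Apoc2 (33.7%) and below for Apoa5 and Apoc1 (14.8%). Apart from Apoa5 and Apoc1, each of these rests on a gene with a value listed at 0 in the study.

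For the 7 genes with a value in every mouse, log2 changes are given with their standard errors. In Sham against Control they ran from -0.69 (SE 0.53, Apoc1) to -0.15 (SE 0.47, Apoa1), and all 7 were below 0. Without Sham mouse 2, Apoa1 (0.11), Apoa2 (0.22) and Apoe (0.12) were above 0 and Apoc1 was at -0.060. In VSG against Sham they ran from -0.44 for Apoa5 to 0.52 for Apoe (SE 0.48) and for Apoa2 (SE 0.56). In VSG against Control all but Apoa5 lay between -0.36 (SE 0.51, Apoc3) and 0.15 (SE 0.48, Apoe), and scaling to the median of genes turned Apoe to -0.010 and Apoa2 from 0.10 to -0.060. The median log2 change of all 10 genes was -0.48 in Sham against Control, where that of all genes tested was 0.04. It was 0.33 against 0.08 in VSG against Sham, and -0.05 against 0.13 in VSG against Control. Without Sham mouse 2 the first of these medians was -0.06 and the second was -0.19, so that mouse decided both. The third was -0.43 without Control mouse 2 and 0.087 without Control mouse 1, so its sign depended on the mice kept. Scaling each mouse to the median moved the median of all genes by over 0.1 on the log2 scale, from 0.13 to -0.00191 in VSG against Control and from 0.08 to -0.02 in VSG against Sham.

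**Figure D2:**
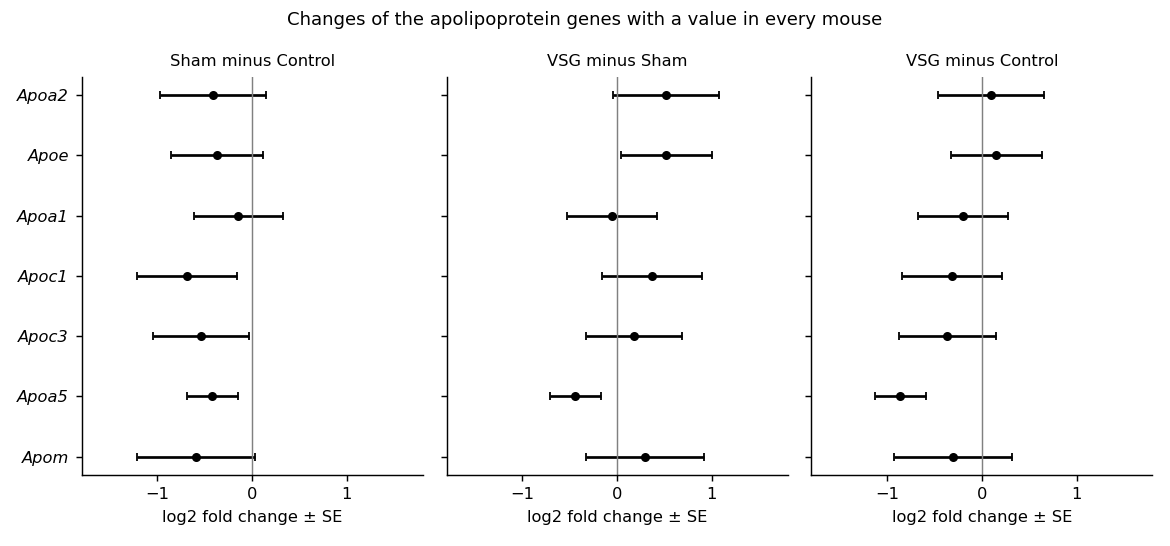
Log2 fold change with its standard error, from limma on log2(FPKM + 1), for the 7 apolipoprotein genes above 0 in all 6 mice, in the 3 comparisons of groups of 2 mice. All 7 points lie below 0 in Sham minus Control, 3 of which turn without Sham mouse 2, and Apoa5 is at -0.87 in VSG minus Control.

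Sham mouse 2 differed from Sham mouse 1 in a way that went with transcript length, and the abundant apolipoprotein transcripts are short. Lengths were found for 579 of 637 genes, 90.9%, with a mean of at least 100 FPKM and a value in every mouse, as the median over the coding transcripts of a gene in GENCODE M1. Among the genes other than the apolipoproteins, the median log2 ratio of Sham mouse 2 to mouse 1 was -0.80 for 232 transcripts under 1000 nt, of which 208 were lower in mouse 2, -0.63 for 234 transcripts of 1000 to 2000 nt, and -0.14 for 106 longer ones. The same ratio was -0.20, -0.13 and 0.01 in Control and -0.14, 0.01 and 0.13 in VSG. Apoa2 (481 nt) was at -1.27, Apoc1 (457 nt) at -1.26, Apoe (816.5 nt) at -0.98 and Apoc3 (489.5 nt) at -0.97. Apoa1 (1035 nt) was at -0.52 and Apoa5 (2413.5 nt) at 0.36. Apom, at 1013 nt and 1.78, went the other way. The part of transcript length in the values of the apolipoprotein genes was not tested.

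**Figure D3:**
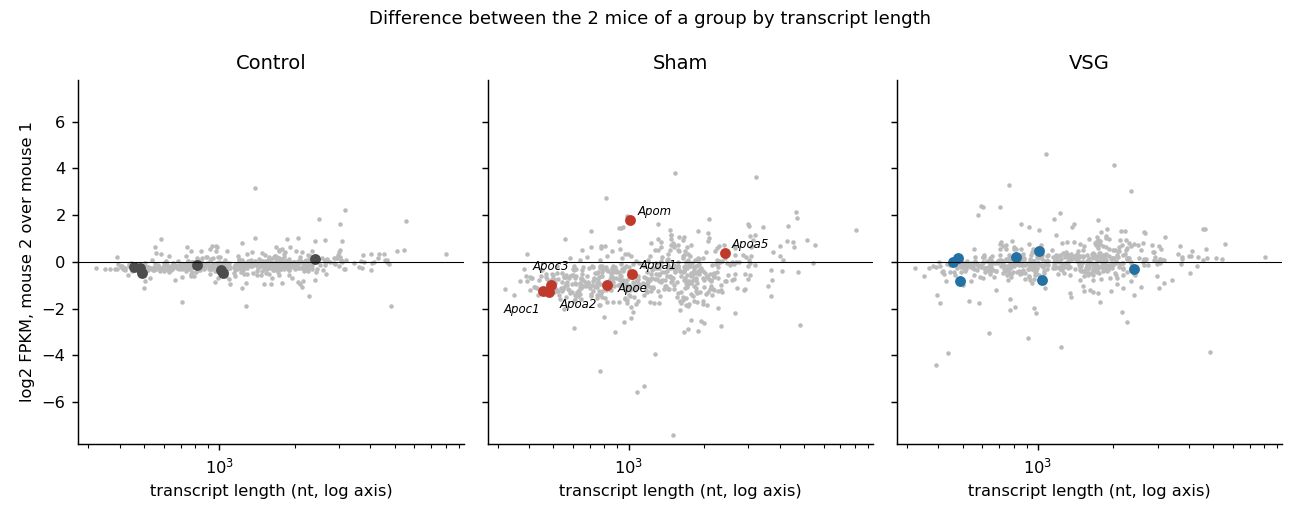
Log2 ratio of FPKM in mouse 2 to mouse 1 of each group against transcript length in nt (log axis), for genes with a mean of at least 100 FPKM; grey points are other genes and large points the 7 apolipoprotein genes above 0 in every mouse, named in the Sham panel. In Sham the short Apoa2, Apoc1, Apoe and Apoc3 lie between -1.27 and -0.97, while Apoa5 lies at 0.36.

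Across the 6 mice, Apoa2 and Apoe had the most similar profiles of any pair of the 10 genes (Pearson r = 0.989 on log2 values), and Apoc1 followed Apoa2 at 0.919. Apoa1 and Apoc3, neighbours on chromosome 9, were at 0.915. Apob and Apoc2 were at 0.963, a value set by the 0 that both are listed at in Sham mouse 1. Among all genes tested, those most like Apoe were Mthfd1 (r = 0.998), Acaa2 (0.997) and Uqcrfs1 (0.996), and each was lowest in Sham mouse 2, at 25.6, 333 and 89.6 FPKM. Those most like Apoa4 were Zfp65 (0.998), Ostc (0.992) and Fam20b (0.991). Fam20b, which encodes a xylose kinase, is also listed at 0 in Control mouse 2 and VSG mouse 2. These values describe 6 mice and share the library of each mouse.

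The other genes of the pathway were grouped in 8 lists, and no gene of any list passed the false discovery rate of 10% in any comparison. Of 10 other apolipoproteins, 7 were tested. Apon had the largest log2 change in Sham against Control, 1.33 (SE 0.47, limma adjusted p = 0.418), from 177 and 170 FPKM in Control to 537 and 358 in Sham, and it was at 435 and 191 in VSG. Clu, the apolipoprotein J gene, was at 1311 FPKM in Sham mouse 2 and 1111 in VSG mouse 1 but at most 292 in the other mice, and its change of 1.37 (SE 1.08) was the largest in VSG against Control.

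Of 10 genes that load lipid onto ApoB or move the particle to the cell surface, 9 were tested. Mttp, the triglyceride transfer protein, was at 82.9 and 91.4 FPKM in Control, 59.1 and 62.0 in Sham, and 69.8 and 60.9 in VSG. Both diet groups lay below Control, as 20.4% of all genes did in Sham and 14.8% in VSG. The log2 changes of Mttp were -0.52 (SE 0.20, limma adjusted p = 0.457) in Sham and -0.41 (SE 0.20, limma adjusted p = 0.610) in VSG. Mttp was named after its values were seen. Surf4, a cargo receptor, had the largest change of the list in both VSG comparisons, -0.97 (SE 0.44) against Sham and -1.09 (SE 0.44) against Control, and was at 104 and 42.7 FPKM in Sham and at 35 and 32 in VSG. Pla2g12b, needed for particle loading, was at 34.6 and 31.0 FPKM in Control, 58.5 and 57.8 in Sham, and 53.1 and 31.7 in VSG. In the list of Apob mRNA editing, 3 of 4 genes were tested. Apobec1, the editing enzyme, lay between 4.29 and 6.78 FPKM in all mice, and its cofactor Rbm47 between 3.71 and 9.10 where it was not listed at 0.

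Of 8 genes of high-density lipoprotein formation, 7 were tested. Pltp, the phospholipid transfer protein, was at 18.6 and 15.3 FPKM in Control, listed at 0 in both Sham mice and in VSG mouse 1, and at 22.1 in VSG mouse 2. Of 9 genes of particle uptake, 8 were tested. Mylip, a ligase that acts on the LDL receptor, was at 2.02 and 1.74 FPKM in Control, 0.337 and 0.603 in Sham, and 1.47 and 1.57 in VSG.

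All 6 genes of lipoprotein lipase control were tested. Angptl8, an inhibitor of the enzyme that feeding induces, was at 15.5 and 7.56 FPKM in Control, 28.5 and 34.5 in Sham, and 94.9 and 46.7 in VSG. The groups did not overlap in any comparison. Of all genes, 25.4% rose without overlap in Sham against Control, 18.5% in VSG against Sham and 33.7% in VSG against Control. The log2 change of Angptl8 in VSG against Control was 2.51 (SE 0.48), with an unadjusted p of 0.00347 and an adjusted p of 0.301 by limma. Gpihbp1, which holds the enzyme on capillary endothelium, was at 13.0 and 9.50 FPKM in Control, 4.22 and 1.93 in Sham, and 4.95 and 10.1 in VSG. Markers of sinusoidal endothelium, led by Clec4g, summed to 44.9 and 19.3 FPKM in Control, 8.71 and 7.58 in Sham, and 32.9 and 28.7 in VSG, and their part in the values of Gpihbp1 was not tested.

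Of 20 transcription factors known to act on apolipoprotein genes, 18 were tested. Nr1d1, a clock repressor for which Apoc3 is a known target, was at 7.88 and 6.84 FPKM in Control, 19.0 and 15.6 in Sham, and 63.3 and 22.1 in VSG. Its log2 change of VSG against Control was 2.21 (SE 0.51, limma adjusted p = 0.348). Rxra was between 65.0 and 86.7 FPKM in 5 mice and listed at 0 in Sham mouse 1, which alone gave it the largest change of the list in both Sham comparisons. Genes of the acute phase, which the liver raises in inflammation, summed to 16376 and 16941 FPKM in Control, 37419 and 67357 in Sham, and 27941 and 11596 in VSG, over the 13 of 20 genes that had a value. Sham mouse 2, with the lowest apolipoprotein share, had the highest acute phase sum, and the link between them was not tested. The largest changes of that list were those of Orm2 and of Hamp, the hepcidin gene. Orm2 was at 178 and 180 FPKM in Control, 4769 and 7138 in Sham, and 2248 and 538 in VSG. Hamp was at 2052 and 2407 FPKM in Control, 1253 and 718 in Sham, and 99.7 and 4.74 in VSG. Hamp was thus already lower in Sham than in Control, opposite to the sum of the list. Its log2 change in VSG against Control was -6.53 (SE 1.35).

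Values for 4 of 8 hepatocyte markers were analysed here. They summed to between 13534 and 24901 FPKM, lowest in Sham mouse 2, with Fabp1 the most abundant. The markers did not move together: Fabp1 and Ttr were lowest in Sham mouse 2, at 3214 and 1011 FPKM, but Ahsg was highest there, at 9213. Ttpa was at 96.1 FPKM there and lowest in Sham mouse 1, at 81.9. Kupffer cell markers, led by C1qb, summed to 52.9 and 36.3 FPKM in Control, 136 and 128 in Sham, and 105 and 342 in VSG. Of 7 markers of intestinal epithelium, 5 were at 0 in all mice and Fabp2 made up nearly all of the remaining 40.1 to 148 FPKM. The summed level reached 75.9 FPKM for stellate cells (led by Dcn), 186 for cholangiocytes (Spp1), 45.3 for neutrophils (S100a8), 20.5 for adipocytes (Cfd) and 0.627 for pancreas (Ctrb1). Of the cholangiocyte maximum, in Sham mouse 1, Spp1 alone gave 183 FPKM. Sox9 was at 2.05 there, and Krt7, Krt19 and Epcam were at their lowest of all mice. The adipocyte maximum, in VSG mouse 1, was nearly all Cfd, with Adipoq, Plin1, Lep and Retn at 0.0220 FPKM or less there.

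FAIRE peaks were deposited as 1 list per group that combines 2 mice, so they carry no error and no test was made. The scaling of the peak signal between groups is not given in the sources used here, so each peak is described by the percentile of its signal within the list of its own group. The lists differ in length, the Control list holding 42204 peaks, that of Sham 52881 and that of VSG 44539, so percentiles were also taken over the 42204 strongest peaks of each list. Within 10 kb of the 10 genes, the Control list had 54 peaks, the Sham list 51 and the VSG list 49. With 42204 peaks from each list the numbers were 54, 44 and 48, which turned the order of Sham and VSG. Merged where they overlapped, they made 55 regions, of which 42 (76.4%) were in all 3 lists, against 55.2% of 59249 regions in the genome. Another 4 regions were in Control only (5.32% of all regions), 4 in Sham only (17.1%) and 0 in VSG only (3.82%).

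The gene clusters were dense in peaks. The chromosome 9 cluster held 3.0 to 3.47 peaks per 10 kb in the 3 groups, the chromosome 7 cluster 3.15 to 3.57 and Apoa2 3.28 to 3.75, whereas Apob held 0.507 to 0.845 and Apom 1.30 to 1.74. The median was 0.597 to 0.702 for 8413 tested protein-coding genes and 1.19 to 1.37 for the 589 of them with a mean of at least 100 FPKM. These medians are over single genes of any length, while a cluster window spans several genes. Taken gene by gene, the clustered genes ran from 1.718 (Apoa5 in VSG) to 5.285 (Apoc3 in Control), in windows that overlap. Gene length was not matched. All 10 starts lay in a peak in Control and Sham, and 9 in VSG, against 79.8% to 83.0% of the 589 starts.

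The start of Apoe had its peak at the 83.5th percentile in Control, the 96.5th in Sham and the 97.5th in VSG (83.5, 95.6 and 97.4 with lists of equal length), and its summit lay 18 to 39 bases past the start in the 3 lists. For Apoc3 the percentiles were 95.9, 88.9 and 91.0, and for Apoa5 89.7, 92.5 and 88.5, with summits at -121 to -104 bases from the Apoa5 start, inside the stretch printed above. Apoa1, at 87.3, 92.1 and 74.0, was lower in VSG, and Apoa4, at 68.0, 84.2 and 85.8, lower in Control. The Apoa2 start, with the highest RNA level of the 10 genes, had a peak at only the 34.3rd, 68.9th and 45.1st percentile, while a region 881 bases upstream stood at 90.5, 96.4 and 89.0. Apob was at 62.4, 81.7 and 63.7, Apoc1 at 81.7, 72.7 and 87.6, and Apoc2 at 78.9, 90.6 and 81.6. The Apom start was at 50.7 and 47.8 and in no peak in VSG.

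**Figure D4:**
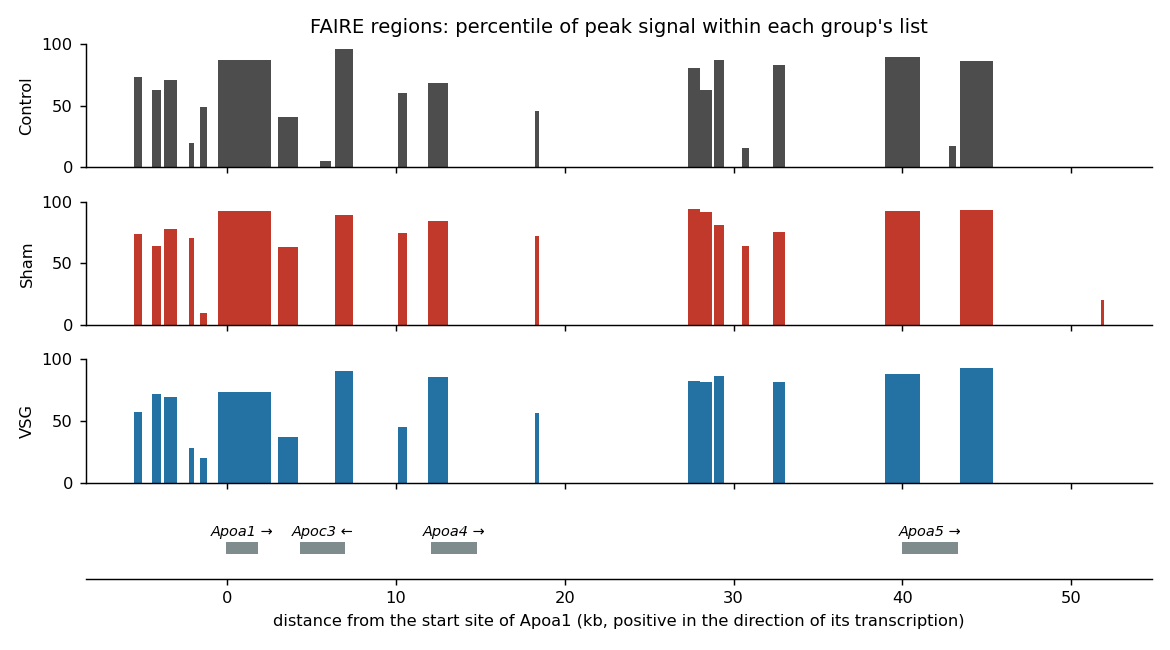
FAIRE regions of the chromosome 9 cluster by distance in kb from the Apoa1 start, with the percentile of peak signal within each group's list as bar height, region length as bar width, and genes with their direction below. Peaks cover all 4 gene starts in the 3 groups, and a group of regions stands 10 to 12 kb before Apoa5.

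**Figure D5:**
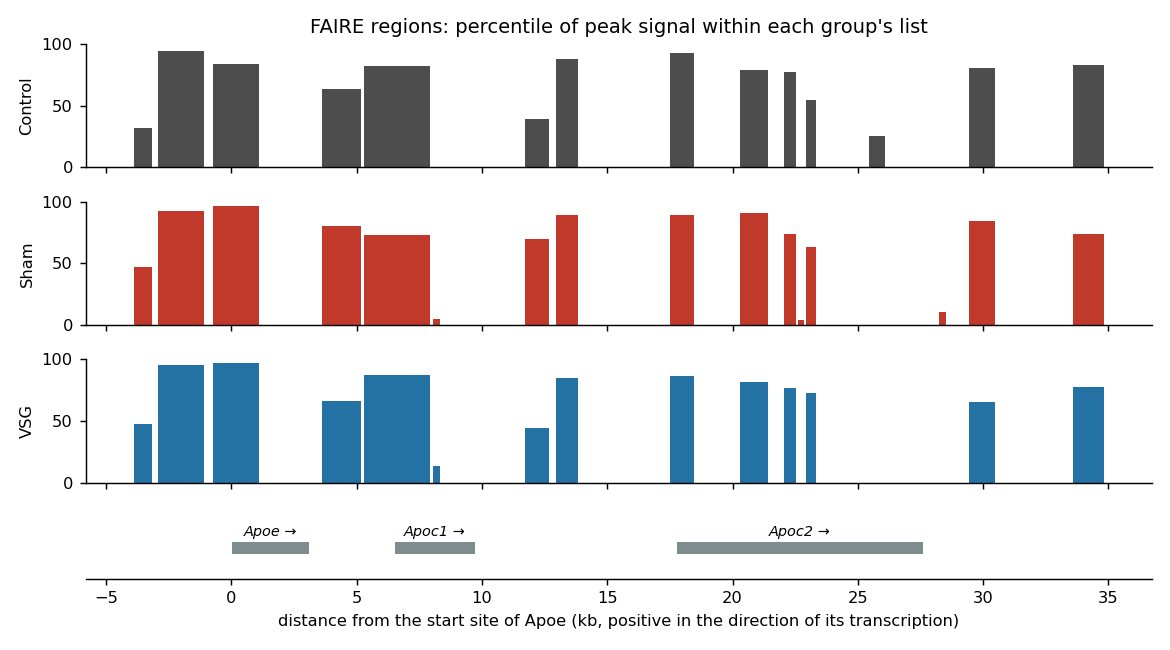
FAIRE regions of the chromosome 7 cluster by distance in kb from the Apoe start in the direction of transcription, drawn as percentile of peak signal within each group's list, with genes below. The bar over the Apoe start stands at 83.5 in Control, 96.5 in Sham and 97.5 in VSG, as ranks within lists of 42204, 52881 and 44539 peaks.

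Of the 42 regions in all 3 lists, 29 had a higher percentile in Sham than in Control, with a median difference of 4.40 percentile points. Over all 32716 such regions the median difference was 2.68, with 19423 higher in Sham. With lists of equal length, 23 of 41 regions were higher in Sham, with a median difference of 1.801 percentile points. Over all 30503 such regions, 14119 were higher in Sham and the median turned to -1.03. With the full lists, VSG minus Sham had a median of -3.05 against -2.95 for all regions, and VSG minus Control 0.02 against 0.73. The region with the largest difference in percentile of Sham over Control, chr9:46034470-46034746, lies 1967 bases upstream of the Apoa1 start, outside any annotated gene, at percentiles of 19.7, 70.6 and 28.4 in Control, Sham and VSG, or 19.7, 63.1 and 24.4 with lists of equal length. Its sequence is shown on the plus strand for that reason, with a nuclear receptor half-site on the reverse strand in capitals.
Region upstream of Apoa1: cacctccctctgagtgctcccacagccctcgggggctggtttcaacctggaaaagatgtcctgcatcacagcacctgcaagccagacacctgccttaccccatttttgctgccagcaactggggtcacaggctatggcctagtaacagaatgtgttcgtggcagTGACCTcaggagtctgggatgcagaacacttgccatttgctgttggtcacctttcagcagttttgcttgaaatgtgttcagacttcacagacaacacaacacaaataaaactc
The next region, chr9:46035140-46035500, 1213 bases upstream of the same start, had the largest difference the other way, with percentiles of 49.2, 9.74 and 19.8, and was not among the 42204 strongest Sham peaks. A region 4915 bases downstream of the Apom start stood at the 73.5th percentile in Control, the 41.2nd in Sham and the 73.1st in VSG, or 73.5, 26.3 and 71.6 with lists of equal length.

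The deposited lists of variable FAIRE sites are short. They hold 99 sites more accessible in Sham than VSG, 414 more accessible in VSG, and 61 and 175 reversible sites higher and lower in Sham. These lists held no site within 10 kb of any of the 10 genes. The share of all genes with a site this near is not given here, so the absence cannot be read as a trait of these genes. Within 100 kb there was 1 site, chr17:35332558-35332974, 63812 bases from the Apom start, and it was listed both as more accessible in VSG than in Sham and as reversible and lower in Sham. The nearest site to Apoe in any list was 372415 bases away, and the nearest to Apob 821690 bases.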

How the data were processed

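The FPKM values were deposited by the authors, estimated with Cufflinks per RefSeq transcript and mouse after TopHat2 alignment to mm9. The labels name poly(A) enrichment and the study's methods rRNA depletion. The signal of each FAIRE peak was deposited by the authors from F-seq, with peaks retained by IDR over 2 mice. Tables of the authors' own comparisons (fold changes and p-values) were not used.

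RefSeq identifiers were paired with symbols for 34046 of 34933 transcripts, and FPKM was summed per gene (22 rows for the 10 genes, 12 of them above 0). A count test was not possible on FPKM, so limma 3.58.1 in R 4.3.3 was fitted to log2(FPKM + 1) of all 3 groups with a trend in the variance, for genes with at least 1 FPKM in at least 2 mice. The steps were tested on simulated data. For limma, these had the same spread for every gene and no failed estimates, so they do not cover genes listed at 0. Depth is unknown, but the steps between low values put it at 0.676 to 1.56 times that of Control mouse 1. Peaks were merged on an overlap of 1 bp. Python 3.11.15, numpy 2.4.6, pandas 2.3.3 and matplotlib 3.10.9 were used.

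The genes, the lists and the tests were chosen with earlier results of these data known. Genes named are all 10 members, the gene of each list with the largest change in each comparison, the most abundant marker and the 3 genes most like Apoa4 and Apoe. Mttp, Apoc4, Lipc and Hnf4a were added after their values were seen. One result that this rule names is not reported here. Replicate numbers were checked for pairing by the correlation of deviations, as given at the end.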

Additional observations from a re-analysis of the deposited data

How the results depend on the processing

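Over 9 alternatives of processing, 264 of 270 fitted log2 changes of the 10 genes kept their direction and their side of the false discovery rate of 10%. Many of these changes could not turn. Dropping the filter, fitting only the 2 groups compared, dropping the variance trend and adding the replicate block leave a log2 change as it was. Taking the most abundant transcript could alter only Apoc2 and Apoe. The 6 that turned were Apoc2 in Sham against Control with the most abundant transcript (4.47) and with zeros read as missing (2.08), Apoc2 in VSG against Sham with zeros read as missing (-0.23), Apoa2 in VSG against Control with FPKM rescaled to one sum per mouse (-0.017) or to the median (-0.060), and Apoe there with the median (-0.010). Reading zeros as missing was chosen after seeing the data. It moved Apoa4 in Sham against Control from 6.32 to 2.80 and Apob there from -4.01 to -0.079. For Apoa4, Apob and Apoc2 a group then rests on 1 mouse, so their p-values under this reading are not given. Over all genes, reading zeros as missing left 0 genes called by limma in every comparison, with 1129, 535 and 1004 genes at an unadjusted p under 0.05.

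Leaving out 1 mouse turned 20 of 180 log2 changes, in 15 of 30 gene and comparison pairs, and the cause was not tested. The 180 include fits without a mouse of the group that is not compared, where a log2 change cannot move. Of pairs that kept their sign, Apoc1 in Sham against Control ran from -1.32 to -0.060 and Apoe in VSG against Sham from 0.032 to 1.01. In Sham against Control the ranges were -0.40 to 0.11 for Apoa1, -1.05 to 0.22 for Apoa2, -7.47 to 2.08 for Apoc2, -0.86 to 0.12 for Apoe and -1.48 to 0.29 for Apom. In VSG against Sham they were -0.44 to 0.33 for Apoa1, -0.12 to 1.15 for Apoa2, -0.26 to 1.0 for Apoc1, -0.23 to 9.31 for Apoc2, -0.31 to 0.66 for Apoc3 and -0.59 to 1.18 for Apom. In VSG against Control they were -0.58 to 0.19 for Apoa1, -0.026 to 0.23 for Apoa2, -3.52 to 5.88 for Apoa4 and -0.77 to 0.038 for Apoc3. Apoa5 was lower in VSG than in Control without any 1 mouse, between -1.02 and -0.71. Its sign could not turn, since both VSG values lie below both Control values.

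The number of the 10 genes called ran from 0 to 2 in Sham against Control and in VSG against Sham. Without Sham mouse 2, Apob (-7.94 and 8.39) and Apoc2 (-7.47 and 9.31) passed in both comparisons, with adjusted p between 0.0487 and 0.0657 by limma. The remaining Sham mouse, assumed to vary like the other groups, is listed at 0 for both genes. The median log2 change of the 10 genes ran from -0.65 to -0.059 in Sham against Control and from -0.19 to 0.45 in VSG against Sham, and from -0.43 to 0.087 in VSG against Control.

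Genes called in the 8 pathway lists ran from 0 to 2, 0 to 1 and 0 to 1 in the 3 comparisons. Pltp was called with only the 2 groups compared (1 gene, adjusted p = 0.0683 by limma) and without either VSG mouse, joined by Orm2 without VSG mouse 1. Lipc was called without Sham mouse 1, and Rxra, with Hnf4a in Sham against Control, without Sham mouse 2. Hamp was called in VSG against Control without VSG mouse 1. With the 10 most abundant other genes left out of the total, the share of FPKM in the apolipoprotein genes was 13.6% in Control and 12.4% in VSG. Within 10 kb, the number of variable FAIRE sites fell from 2 listings to 0. The numbers of FAIRE peaks near the genes ran from 36 to 54 in Control, 40 to 51 in Sham and 36 to 49 in VSG, and with all lists cut to 42204 peaks they were 54, 44 and 48. Percentiles over lists of equal length were an alternative chosen after seeing the data.

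Mouse numbers were not shown to pair the samples: deviations of same-numbered mice correlated at 0.118, 0.0643 and 0.0390. A fit with the replicate number as a block left 0 of the 10 genes called. The median log2 changes stayed at -0.48, 0.33 and -0.05, which such a block cannot alter when every group holds both numbers. Over all genes limma called 9, 0 and 10 genes with the block instead of 28, 5 and 28, with 507 at an unadjusted p under 0.05 in VSG against Sham. The alternatives that kept all mice called 0 to 64, 0 to 8 and 0 to 41 of all genes in the 3 comparisons, and those without 1 mouse 0 to 157, 0 to 50 and 0 to 34.

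Depth is not given with FPKM values, so the counting error of low genes is unknown.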
